A study of Mus musculus with 4 samples.

Results

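The Bcl2 family members described here were 10 genes picked by name, and the deposited expression table lists all 10 of them among its 23995 gene symbols. They comprised 6 genes that protect cells from death (Bcl2, Bcl2l1, Mcl1, Bcl2a1a, Bcl2a1b and Bcl2a1d) and 4 that promote it (the effectors Bax and Bak1 and the BH3-only genes Bcl2l11 and Bid). The RNA came from monocytes sorted from mouse blood as Ly6Chi (classical) and Ly6Clo (nonclassical, patrolling) cells. The control mice were Rbpj+/+ Lyz2cre/cre, and the RBP-J-deficient mice were Rbpjfl/fl Lyz2cre/cre, with no treatment named for either. Cre stood in both copies of the Lyz2 locus in all mice, controls included, and it is active in monocytes, macrophages and neutrophils alike. The methods of the study give an age of 7 to 12 weeks, with sex and age matched. The control libraries carry the title WT and the genotype label Lyz2-Cre. Each of the 4 groups, control Ly6Clo, RBP-J-deficient Ly6Clo, control Ly6Chi and RBP-J-deficient Ly6Chi, held 1 library, and the number of mice behind each is not given. With 1 library per group no difference below has a replicate check, no error can be attached to any value, and no test of genotype or subset was made. The 4 comparisons share these libraries, so they are not independent of each other.

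Proteins of the BCL2 family decide at the mitochondrial outer membrane whether a cell enters apoptosis. BAX and BAK form the pores that release cytochrome c, antiapoptotic members such as BCL2, BCL-XL, MCL1 and A1 hold them in check, and BH3-only proteins such as BIM and BID sense damage or loss of survival signals and tip the balance toward death. Blood monocytes are short-lived cells that depend on such survival signals, and Ly6Clo monocytes outlive the Ly6Chi monocytes from which they derive. The comparison of the genotypes asks what loss of RBP-J, the DNA-binding factor of Notch signalling, does to these genes in each subset.

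Levels are given as FPKM, fragments mapped to a transcript relative to its length and to the size of the library, which allows genes to be set against each other. Differences are given as the log2 ratio of (FPKM + 1) and called at 2-fold, which is 1 or -1 on this scale. Adding 1 understates the difference of genes with low values. Between 8985 and 9394 genes reached an FPKM of 1 in a library, and 10240 did so in at least 1 library and formed the background for shares of genes. The number of reads per library was not given, and low FPKM values did not fall on steps that would recover it, so the depth is unknown. The deleted gene, Rbpj, had an FPKM of 8.30 and 2.43 in control and RBP-J-deficient Ly6Clo monocytes, and 14.4 and 2.85 in Ly6Chi monocytes. Markers were checked against the labels. Ly6c2 was at 2013 and 1594 in the control and RBP-J-deficient Ly6Chi libraries and at 10.9 and 78.3 in the Ly6Clo libraries. Csf1r, a receptor of the monocyte lineage, was at 307 and 213 in the Ly6Chi and at 407 and 157.8 in the Ly6Clo libraries. Of the 5 monocyte markers, Csf1r was the one at least 2-fold lower in RBP-J-deficient Ly6Clo monocytes. Lyz2 was the one at least 2-fold higher, at 52.0 in control and 133.9 in RBP-J-deficient Ly6Clo monocytes. Because Cre stands in both copies of Lyz2 in all of these mice, its level is no plain check of cell identity. The 5 markers of Ly6Clo monocytes were at least 2-fold higher in Ly6Clo than in Ly6Chi monocytes of control mice. In RBP-J-deficient mice 0 of them were, and Nr4a1 was at 65.6 in the Ly6Clo and 182 in the Ly6Chi library. In control Ly6Clo monocytes Nr4a1 was at 618. By flow cytometry and qPCR, however, the study found Nr4a1 similar between the genotypes in Ly6Clo monocytes, so these single libraries differ from its own assays. T and NK cell markers, 5 genes, summed to at most 1.74. In bulk RNA, fewer cells of a type and less RNA per cell cannot be told apart.

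All 10 members reached an FPKM of 1 in each of the 4 libraries, so none was lost to a filter on low values. Bcl2a1b was the most abundant member in control Ly6Clo monocytes, at an FPKM of 638 and rank 153 of the 10240 genes, and Bcl2l11 the least, at 1.25 and rank 8913. In control Ly6Chi monocytes the order was another, with Bax first at 282, followed by Mcl1 at 115 and Bid at 102.

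**Figure D1:**
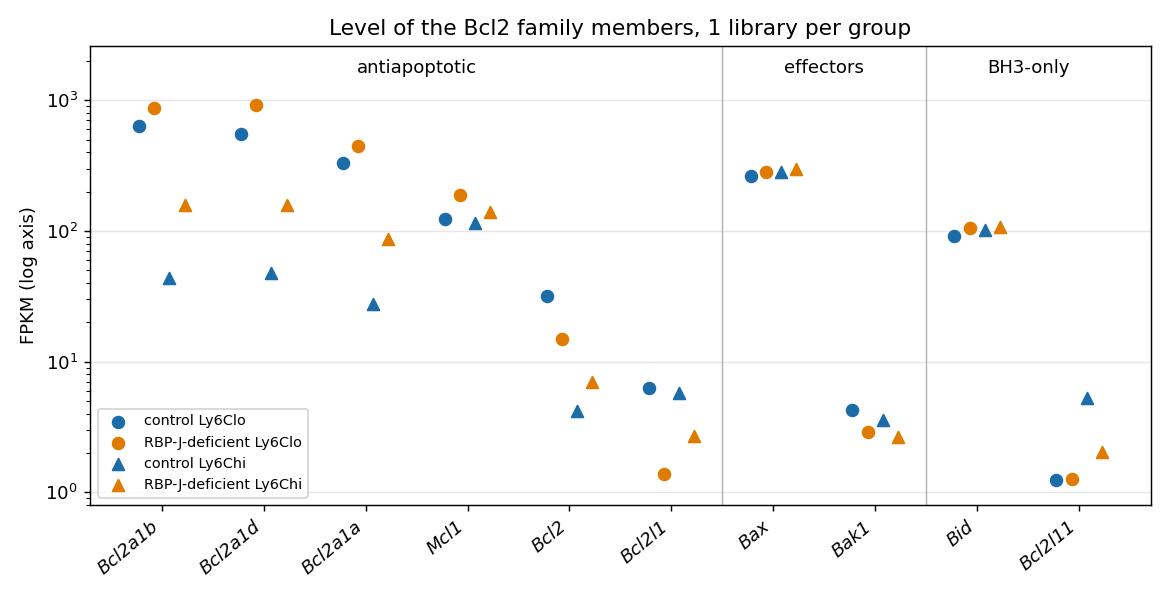
FPKM of the 10 members on a log axis, with 1 point for each library (circles Ly6Clo, triangles Ly6Chi, blue control, orange RBP-J-deficient) and vertical lines between the roles. The 3 Bcl2a1 genes were higher in both Ly6Clo libraries than in both Ly6Chi libraries, Bax and Bid lay at nearly one level in all 4, and the lowest values were those of Bcl2l11 and Bcl2l1.

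The subsets of control mice differed most in Bcl2a1a, Bcl2a1b and Bcl2a1d, which encode copies of the antiapoptotic protein A1, a short-lived guard of myeloid and lymphoid cells. The 3 genes are nearly identical and lie in 1 cluster of 485 kb on chromosome 9 of GRCm38, Bcl2a1d at 88723288 to 88731850 on the minus strand, Bcl2a1a at 88956920 to 88962416 and Bcl2a1b at 89199273 to 89207838 on the plus strand. Because the 3 moved together in every comparison, their promoters are shown, 250 bases before to 50 after the annotated start in RefSeq on GRCm38.p6, 5′ to 3′ in the sense of the gene. They are Bcl2a1a at chr9:88956670-88956969 (plus strand), Bcl2a1b at chr9:89199023-89199322 (plus strand) and Bcl2a1d at chr9:88731801-88732100 (minus strand). The capitals mark, first, TTCCCAC, the reverse complement of the RBP-J consensus GTGGGAA, and second, GAGGAAGT, a core bound by PU.1, the master factor of the myeloid lineage.
Bcl2a1a: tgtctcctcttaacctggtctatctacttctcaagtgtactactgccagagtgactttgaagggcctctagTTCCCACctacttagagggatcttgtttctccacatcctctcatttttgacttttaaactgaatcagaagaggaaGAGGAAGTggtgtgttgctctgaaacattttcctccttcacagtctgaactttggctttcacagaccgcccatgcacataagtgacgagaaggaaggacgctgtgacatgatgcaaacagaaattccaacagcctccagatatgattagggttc
Bcl2a1b: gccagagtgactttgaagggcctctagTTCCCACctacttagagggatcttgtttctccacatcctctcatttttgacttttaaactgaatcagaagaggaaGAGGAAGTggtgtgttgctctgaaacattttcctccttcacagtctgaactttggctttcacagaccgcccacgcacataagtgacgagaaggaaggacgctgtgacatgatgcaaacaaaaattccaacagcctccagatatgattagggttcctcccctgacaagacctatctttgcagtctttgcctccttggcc
Bcl2a1d: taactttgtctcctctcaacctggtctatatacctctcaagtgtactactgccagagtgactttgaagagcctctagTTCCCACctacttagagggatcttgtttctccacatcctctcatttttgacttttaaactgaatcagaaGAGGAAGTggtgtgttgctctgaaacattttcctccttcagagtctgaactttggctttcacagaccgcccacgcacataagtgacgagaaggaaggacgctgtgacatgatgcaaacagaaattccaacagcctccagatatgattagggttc

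The aligned bases of these promoters were 98.0% to 99.2% identical. The RBP-J letters began at position -179 from the start of Bcl2a1a, -223 from that of Bcl2a1b and -173 from that of Bcl2a1d, and the PU.1 letters began at -104, -148 and -104. Searched on both strands, GTGGGAA was in 6.38% of 32851 RefSeq promoters of this length and in those of 3 of the 10 members, the 3 Bcl2a1 genes, which share their sequence and are not independent of each other. GAGGAAGT was in 3.20% of promoters, and among the members in the 3 Bcl2a1 genes and Bak1. AAAGGTCA, the element bound by NR4A1, was in 1.51% of promoters and in none of the 13 promoters of the 10 members. The motifs do not overlap in these windows, and a match of letters is no evidence of binding.

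The transcripts of the 3 genes were 98.2% to 99.1% identical over their aligned bases. Of all stretches of 100 bases in a transcript, 43.5% of those of Bcl2a1a, 31.1% of Bcl2a1b and 54.7% of Bcl2a1d occur unchanged in another copy. The division of reads among the 3 rows is therefore uncertain, and their sum is given beside the single rows. The rows took similar shares of that sum in the 4 libraries, 19.8% to 23.2% for Bcl2a1a, 36.8% to 42.1% for Bcl2a1b and 36.2% to 41.0% for Bcl2a1d.

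The FPKM of Bcl2a1b was 638 in control Ly6Clo, 878 in RBP-J-deficient Ly6Clo, 43.9 in control Ly6Chi and 159 in RBP-J-deficient Ly6Chi monocytes. That of Bcl2a1d was 549, 916, 47.8 and 157, and that of Bcl2a1a was 329, 442, 27.6 and 86.2, in the same order. In each of the 3 rows, which are not independent of each other, both Ly6Clo libraries were above both Ly6Chi libraries. Within each subset the RBP-J-deficient library was the higher one. How many of all genes have this order was not counted. The sum of the 3 rows was 1516 in control Ly6Clo, 2236 in RBP-J-deficient Ly6Clo, 119 in control Ly6Chi and 402 in RBP-J-deficient Ly6Chi monocytes. Between the subsets of control mice the sum differed by 12.6-fold, a log2 ratio of 3.66 in favour of Ly6Clo, and in RBP-J-deficient mice by 5.55-fold, a log2 ratio of 2.47.

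Bcl2, the founding member of the family and a long-lived guard of the mitochondrial membrane, lies on chromosome 1 at 106538176 to 106714290 on the minus strand. Its FPKM was 31.7 in control Ly6Clo, 14.8 in RBP-J-deficient Ly6Clo, 4.18 in control Ly6Chi and 6.94 in RBP-J-deficient Ly6Chi monocytes. Like Bcl2a1 it was higher in the Ly6Clo than in the Ly6Chi library of both genotypes, with a log2 ratio of 2.66 in control mice and 0.99 in RBP-J-deficient mice, the latter just short of 2-fold. B cell and other markers moved with the control difference, Cd79a being at 9.02 in Ly6Clo and 0.699 in Ly6Chi monocytes and Ms4a1 at 3.27 and 0.429, with all 5 neutrophil and all 4 platelet genes at least 2-fold lower in Ly6Clo monocytes, and their part in it was not tested. In RBP-J-deficient mice Cd79a was at 1.13 in Ly6Clo and 1.42 in Ly6Chi monocytes. Cd79b was at 41.9 and 23.7 in control mice and at 100.2 and 43.7 in RBP-J-deficient mice. The 4 B cell genes summed to 54.2 and 24.8 in control mice and to 101.4 and 46.1 in RBP-J-deficient mice. Bcl2l11, which encodes BIM, the BH3-only sensor of lost growth factor signals, went the other way from Bcl2 in control mice. It lies on chromosome 2 at 128126038 to 128162547 (plus strand), and its FPKM was 1.25, 1.26, 5.24 and 2.03 in the order used for Bcl2. Control Ly6Chi monocytes stood above the other 3 libraries, and the log2 ratio of Ly6Clo over Ly6Chi was -1.47 in control mice (-0.71 with a pseudocount of 5) and -0.42 in RBP-J-deficient mice.

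Of the 10 members, 4 were thus at least 2-fold higher in Ly6Clo than in Ly6Chi monocytes of control mice (Bcl2 and the 3 Bcl2a1 rows), where 5.21% of the 10240 genes were. One member, Bcl2l11, was at least 2-fold lower, against 7.75% of genes. In RBP-J-deficient mice the 3 Bcl2a1 rows were at least 2-fold higher in Ly6Clo monocytes, against 8.41% of genes, and 0 members were at least 2-fold lower, against 10.6%. With the Bcl2a1 rows taken as 1 gene, the higher members number 2 and 1 in control and RBP-J-deficient mice. The median log2 ratio of the members was 0.15 and 0.26 in control and RBP-J-deficient mice, beside 0 and 0.0196 for all genes.

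**Figure D2:**
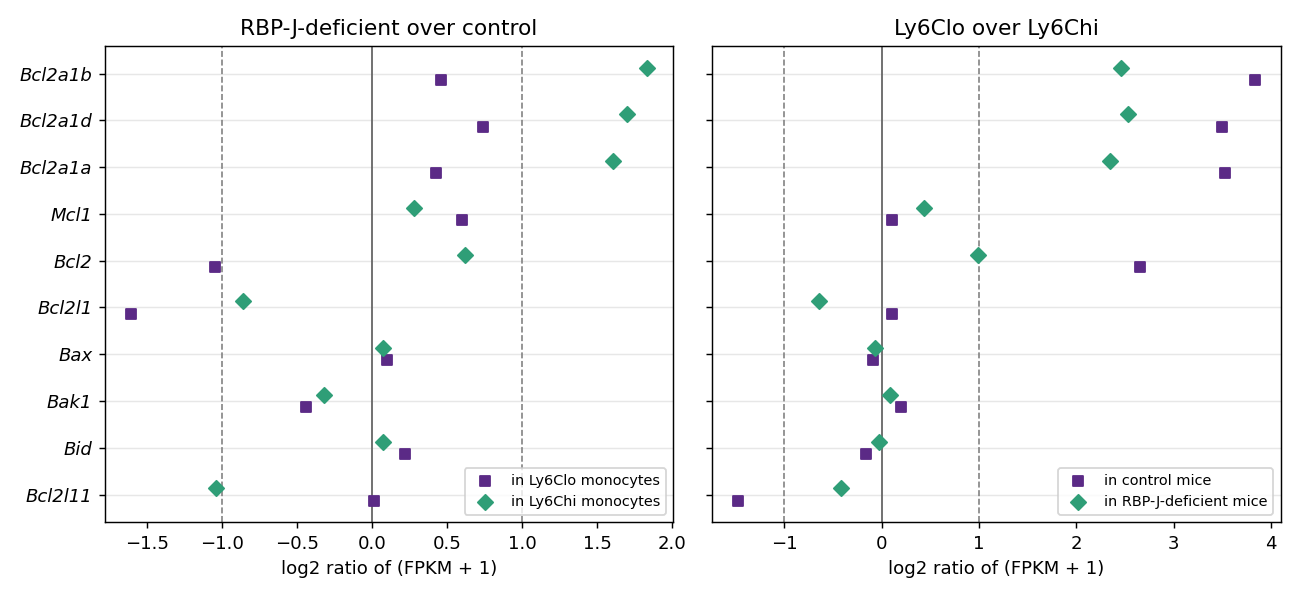
Log2 ratio of each member on (FPKM + 1), at left RBP-J-deficient over control in Ly6Clo (squares) and Ly6Chi (diamonds) monocytes, at right Ly6Clo over Ly6Chi in control (squares) and RBP-J-deficient (diamonds) mice, with dashed lines at 2-fold. At left the Bcl2a1 genes lie past the upper line in Ly6Chi monocytes, Bcl2 and Bcl2l1 past the lower line in Ly6Clo monocytes, and Bcl2l11 past it in Ly6Chi monocytes.

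Loss of RBP-J in Ly6Chi monocytes went with higher Bcl2a1. The log2 ratio, RBP-J-deficient over control, was 1.61 for Bcl2a1a, 1.83 for Bcl2a1b, 1.70 for Bcl2a1d and 1.75 for their sum, a 3.35-fold difference. These 3 rows of the 10 members were at least 2-fold higher, against 2.64% of all genes. Bcl2l11 was the member at least 2-fold lower, at -1.04, against 4.56% of all genes. Its fold rests on the pseudocount, since with 5 in place of 1 the log2 ratio was -0.54. Bcl2, at 4.18 and 6.94, had a log2 ratio of 0.62, and Bcl2l1, at 5.74 and 2.72, had -0.86.

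Other genes that distinguish the subsets were set beside this result. Among 5 markers of Ly6Clo monocytes, the receptor Treml4 had an FPKM of 154 and 316 in control and RBP-J-deficient Ly6Chi monocytes (1018 in control Ly6Clo), and Spn, which encodes CD43, had 12.2 and 23.1 (61.5 in control Ly6Clo). The other members of that list were not higher, with Nr4a1 at 214 and 182, Ace at 26.4 and 24.7 and Itgal at 93.6 and 83.6. The 5 genes summed to 500.4 and 630 in control and RBP-J-deficient Ly6Chi monocytes, and to 2016 and 715 in the Ly6Clo libraries. The way from the control Ly6Chi to the control Ly6Clo level was measured on FPKM itself, not on log2. Of this way the RBP-J-deficient Ly6Chi library had covered 19.5% for Bcl2a1a, 19.4% for Bcl2a1b, 21.8% for Bcl2a1d and 10.03% for Bcl2. For the markers this position was 18.8% for Treml4 and 22.1% for Spn, but -7.77% for Nr4a1, -2.06% for Ace and -8.60% for Itgal. These positions depend on the scale. On log2, the Bcl2a1 rows had covered 1.61 to 1.83 of 3.49 to 3.83, and Bcl2 0.62 of 2.66. Treml4 had covered 1.03 of 2.71 and Spn 0.87 of 2.24, with negative values for Nr4a1, Ace and Itgal. The 4 markers of Ly6Chi monocytes were all lower in the RBP-J-deficient Ly6Chi library, none by 2-fold, and summed to 3472 in the control and 2665 in the RBP-J-deficient one. Markers of neutrophils, cells that also hold Bcl2a1 RNA, summed to 1522 and 1188 in control and RBP-J-deficient Ly6Chi monocytes. The sum is over the 5 of 6 genes in the table, without Ly6g, and S100a8 was the main part. Whether this RNA came from neutrophils or from the sorted monocytes themselves was not tested. The study gives a Ly6G- CD115+ gate for bone marrow monocytes, and it also stained blood cells for Ly6G and CD115 in its EdU and bead experiments. Its RNA-seq methods name no gate for the sequenced cells. The part of other cells in the Bcl2a1 result was not tested.

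In Ly6Clo monocytes loss of RBP-J went with lower Bcl2 and Bcl2l1. Bcl2, at 31.7 and 14.8 in control and RBP-J-deficient cells, had a log2 ratio of -1.05. Bcl2l1, which encodes BCL-XL, the guard on which platelets and red cell precursors depend, had an FPKM of 6.25 and 1.38 and a log2 ratio of -1.61. It lies on chromosome 2 at 152758732 to 152833803 on the minus strand. Across the 4 libraries Bcl2l1 was at 6.25 and 5.74 in the control libraries and at 1.38 and 2.72 in the RBP-J-deficient ones. The share of all genes with this order of libraries was not counted. Bcl2 and Bcl2l1, 2 of the 10 members, were at least 2-fold lower, against 11.1% of all genes. At least 2-fold higher were 0 members, against 8.97% of genes. The share lower is not far above the background, and with a pseudocount of 5 the log2 ratios were -0.89 for Bcl2 and -0.82 for Bcl2l1, both short of 2-fold.

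Markers of the subsets also differed between these 2 libraries, while those of other blood cells went in mixed directions. The 4 markers of Ly6Chi monocytes, all at least 2-fold higher, summed to 74.3 in the control and 571 in the RBP-J-deficient Ly6Clo library. The 5 markers of Ly6Clo monocytes, of which Nr4a1, Ace and Itgal were at least 2-fold lower, summed to 2016 and 715. The lower Nr4a1 was not seen in the study's flow cytometry and qPCR of Ly6Clo monocytes. Among 4 B cell genes, Cd79a was at 9.02 and 1.13 in control and RBP-J-deficient Ly6Clo monocytes and Ms4a1 at 3.27 and 0.0603, while Cd79b was at 41.9 and 100.2. Pax5 is listed at 0 in both, and the summed level of the 4 genes was 54.2 and 101.4. For platelets, Itga2b was at 3.10 and 0.929 and Gp9 at 6.11 and 1.16 in Ly6Clo monocytes, whereas the more abundant Pf4 was at 56.5 and 51.4 and the 4 genes summed to 121.5 and 121.1. In Ly6Chi monocytes the platelet genes summed to 340 and 285 in control and RBP-J-deficient mice, with Itga2b at 14.4 and 5.62. Of the erythroid genes, Alas2 was at 6.66 and 1.60 and Hbb-bt at 394 and 131 in Ly6Clo monocytes. Neutrophil genes summed to 239 and 170 there, S100a8 being lower while Retnlg and Mmp8 were at least 2-fold higher. The part of these cells in the lower Bcl2 and Bcl2l1 was not tested.

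The 3 Bcl2a1 rows were also higher in RBP-J-deficient Ly6Clo monocytes, but short of 2-fold. Their log2 ratios were 0.43 for Bcl2a1a, 0.46 for Bcl2a1b and 0.74 for Bcl2a1d, and that of the sum was 0.56. Part of this depended on the processing, since rescaling to TPM gave 0.12, 0.16 and 0.44 and a correction for GC content gave 0.0826, 0.11 and 0.41. Mcl1, which encodes a short-lived guard, lies on chromosome 3 at 95656944 to 95663179 (plus strand). FPKM values of Mcl1 were 123 in control Ly6Clo, 188 in RBP-J-deficient Ly6Clo, 115 in control Ly6Chi and 139 in RBP-J-deficient Ly6Chi monocytes. The RBP-J-deficient library was the higher one in both subsets, with log2 ratios of 0.60 and 0.28 (0.30 and 0.18 with TPM), and in each genotype the Ly6Clo library was above the Ly6Chi library, by 0.11 and 0.43.

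Bax and Bid had the most even FPKM across the libraries. Bax, a pore-forming effector on chromosome 7 at 45461695 to 45466903 (minus strand), had an FPKM of 264 in control Ly6Clo, 283 in RBP-J-deficient Ly6Clo, 282 in control Ly6Chi and 296 in RBP-J-deficient Ly6Chi monocytes. Its log2 ratios lay between -0.0935 and 0.0969 in the 4 comparisons, and their sign changed with the scaling to TPM in both genotype comparisons and with the GC correction in both subset comparisons. The GC correction also raised the genotype ratios of Bax to 0.67 in Ly6Clo and 0.43 in Ly6Chi monocytes, above those of Mcl1 at 0.47 and 0.22, so the evenness of Bax holds on the FPKM scale only. Bid, which links death receptors to the mitochondrion once caspase 8 has cut it, lies on chromosome 6 at 120893119 to 120917062 (minus strand). Its FPKM was 90.7, 106, 102 and 107 in the same order. Log2 ratios of Bid were 0.22 in Ly6Clo and 0.0746 in Ly6Chi monocytes between the genotypes, and -0.0840 and -0.0267 with TPM. Bak1, the other effector, lies on chromosome 17 at 27019812 to 27028627 (minus strand) and was far less abundant than Bax. Its FPKM was 4.27, 2.88, 3.58 and 2.66, the RBP-J-deficient library being lower in both subsets, with log2 ratios of -0.44 and -0.32. In Ly6Clo monocytes that ratio was -0.71 with TPM and -0.0107 with the GC correction. The span of Bak1 overlaps that of Ggnbp1 on the other strand, listed at 0 to 1.37, and the strand setting of the counting is not given.

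**Figure D3:**
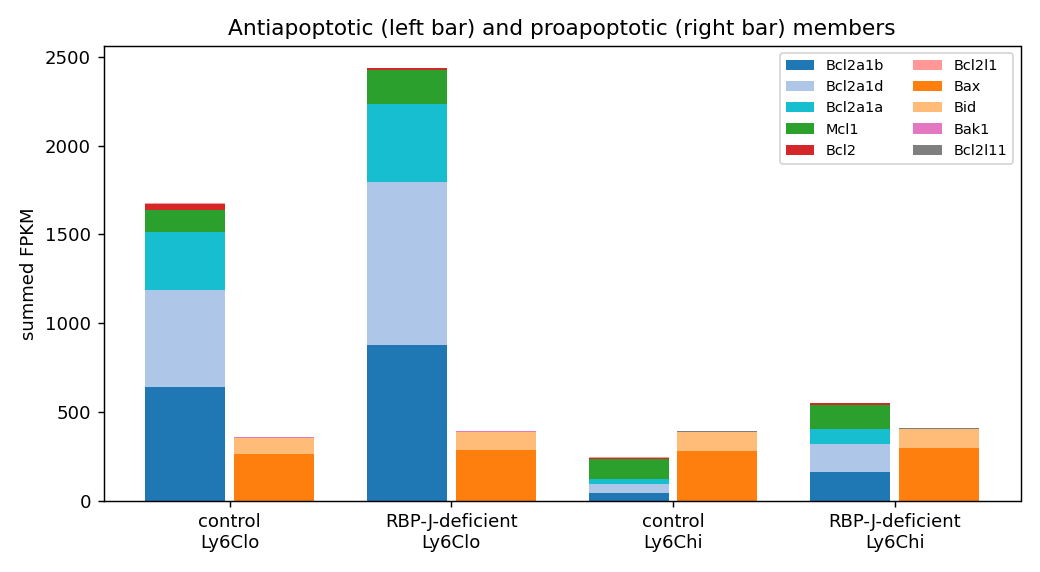
Summed FPKM of the 6 antiapoptotic members (left bar) and the 4 proapoptotic members (right bar) in each library, stacked by gene. The right bars run from 360 to 408, while the left bars run from 244 in control Ly6Chi to 2440 in RBP-J-deficient Ly6Clo monocytes, mostly through the 3 Bcl2a1 rows.

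Summed by role, the antiapoptotic members reached an FPKM of 1677 in control Ly6Clo, 2440 in RBP-J-deficient Ly6Clo, 244 in control Ly6Chi and 551 in RBP-J-deficient Ly6Chi monocytes. The proapoptotic members summed to 360, 392, 393 and 408, so the antiapoptotic sum carried nearly all of the difference between libraries. The ratio of the sums was 4.65 and 6.22 in control and RBP-J-deficient Ly6Clo monocytes and 0.621 and 1.35 in Ly6Chi monocytes. The Bcl2a1 rows made up 90.4%, 91.6%, 48.9% and 73.0% of the antiapoptotic sum in the order of the first sentence. Without them the ratio was 0.448, 0.520, 0.317 and 0.364 in that order. On the FPKM scale it was still higher in Ly6Clo than in Ly6Chi monocytes and in RBP-J-deficient than in control mice. What remained was mostly Mcl1 over Bax. With the GC correction the genotype log2 ratios in Ly6Clo and Ly6Chi monocytes were 0.67 and 0.43 for Bax, and 0.47 and 0.22 for Mcl1. The subset ratios in control and RBP-J-deficient mice were then 0.16 and 0.42 for Bax, and 0.083 and 0.33 for Mcl1. The ratio of the sums was not recomputed with that correction, so its direction is given for FPKM only. The sums are of RNA levels, and protein was not measured here.

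The neighbours of the Bcl2a1 cluster differed less between the subsets than the Bcl2a1 rows. Between Bcl2a1d and Bcl2a1b the table lists Trim43b and Trim43c at 0 in all 4 libraries and 9330159M07Rik at 0.304 to 0.624. Just outside the cluster lie Mthfs, an enzyme of folate metabolism, and Gm2382, named Mthfsl in GENCODE for its likeness to Mthfs. Mthfs had an FPKM of 175 in control Ly6Clo, 376 in RBP-J-deficient Ly6Clo, 118 in control Ly6Chi and 193 in RBP-J-deficient Ly6Chi monocytes, and Gm2382 had 242, 568, 154 and 261. Their log2 ratios of Ly6Clo over Ly6Chi in control mice were 0.56 and 0.65, beside 3.49 to 3.83 for the Bcl2a1 rows. In RBP-J-deficient mice these ratios were 0.96 for Mthfs, 1.12 for Gm2382 and 1.22 for the more distant Snhg5, beside 2.35 to 2.54 for the Bcl2a1 rows. Between the genotypes they were higher in RBP-J-deficient mice in both subsets, Mthfs by 1.10 in Ly6Clo and 0.70 in Ly6Chi monocytes and Gm2382 by 1.23 and 0.76. For the Bcl2a1 rows the larger ratio was in Ly6Chi monocytes, and for these neighbours it was in Ly6Clo monocytes.

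**Figure D4:**
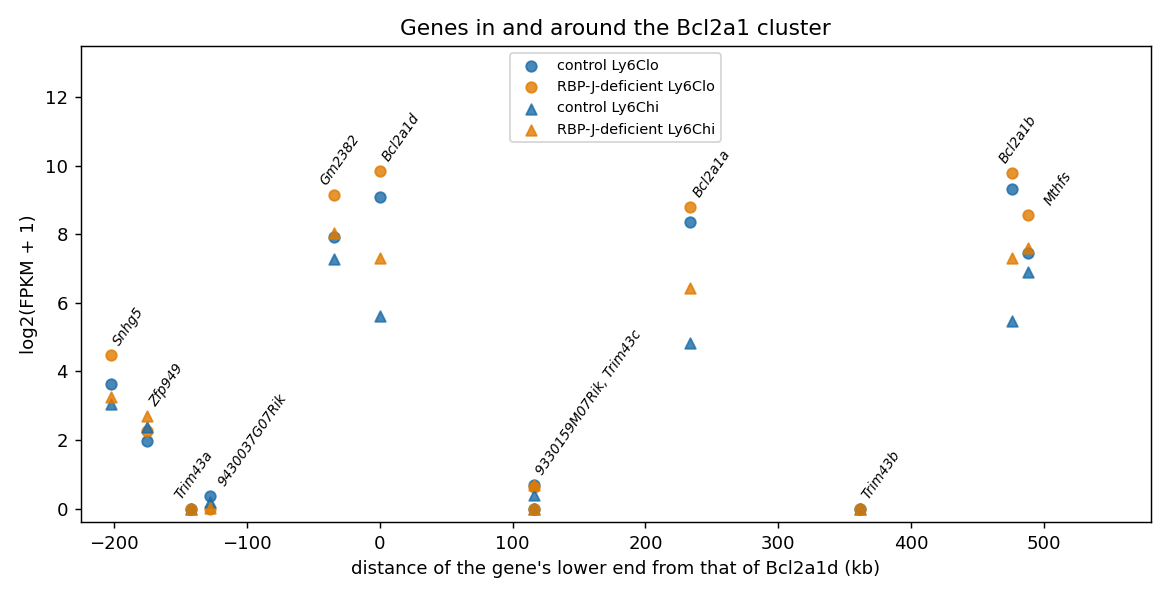
Log2(FPKM + 1) of the genes in and around the Bcl2a1 cluster against the distance of their lower end from that of Bcl2a1d in kb (circles Ly6Clo, triangles Ly6Chi, blue control, orange RBP-J-deficient). The gap between circles and triangles is widest at Bcl2a1d, Bcl2a1a and Bcl2a1b and narrower at Gm2382 and Mthfs. The other genes inside the cluster lie at or near 0.

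By profile over the 4 libraries, centred log2(FPKM + 1), the genes nearest to Bcl2 among 4836 with a mean FPKM of at least 10 were S1pr5, Trem1 and Cd9, at distances of 0.18, 0.27 and 0.28. S1pr5, a sphingosine phosphate receptor, had an FPKM of 115 in control Ly6Clo, 54.7 in RBP-J-deficient Ly6Clo, 18.9 in control Ly6Chi and 24.4 in RBP-J-deficient Ly6Chi monocytes, the same order of libraries as Bcl2. Nearest to Mcl1 were Bpgm, Ifitm6 and Ccnl1, at 0.0396 to 0.0422, and nearest to Bcl2l11 were Tnfrsf21, Tnfsf13 and Arrdc4, at 0.20 to 0.31. Tnfrsf21, which encodes death receptor 6, was at 25.997, 24.4, 62.4 and 35.3 in the same order of libraries. With 4 points per gene and 4836 genes, near profiles are found for many genes.

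Beyond the 10 members, 44 genes of the cell death pathway were listed by function, and 37 of them were among the 10240 expressed genes. In Ly6Clo monocytes, 4 of the 37 were at least 2-fold higher in RBP-J-deficient mice and 7 at least 2-fold lower, against 8.97% and 11.1% of all genes, and in Ly6Chi monocytes 0 and 0, against 2.64% and 4.56%. The higher genes were close to the background share. Of the further BCL2 family genes, 9 of 15 were expressed, 0 were higher and 3 were lower in Ly6Clo monocytes, against the same 8.97% and 11.1%. Bbc3, which encodes the BH3-only protein PUMA, was at 11.0 and 2.17 in control and RBP-J-deficient Ly6Clo monocytes, a log2 ratio of -1.92, and at 7.36 and 5.79 in Ly6Chi monocytes. Bad, a BH3-only protein silenced by growth factor signals, was at 16.7 and 6.62 in Ly6Clo and at 58.5 and 62.3 in Ly6Chi monocytes, and Bcl2l13 was at 2.77 and 0.641 in Ly6Clo monocytes. Pmaip1, which encodes NOXA, the partner of MCL1 and A1, was the most abundant of the 15, at 105 to 195 with genotype log2 ratios of 0.16 and 0.44. Bok, Bik, Hrk and Bcl2l10 are listed at 0 in all 4 libraries.

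Downstream of the mitochondrion, all 10 genes of the apoptosome and caspase list were expressed. Cycs, which encodes the cytochrome c that BAX and BAK release, was at 80.3 and 181 in control and RBP-J-deficient Ly6Clo monocytes, a log2 ratio of 1.16. Endog, which encodes a mitochondrial nuclease, was at 1.88 and 0.156, a log2 ratio of -1.32. Of 6 caspase inhibitors, Birc6 was higher, at 23.7 and 78.8 with a log2 ratio of 1.69. Among the 6 expressed genes listed as death receptors and adaptors, Fas was at 25.7 and 60.1, a log2 ratio of 1.19. The receptors of TNF were lower, Tnfrsf1a at 103 and 39.5 and Tnfrsf1b at 112 and 51.9. Trp53, which encodes the p53 factor that drives Bax, Bbc3 and Cdkn1a, was at 57.5 and 19.1, a log2 ratio of -1.54, and Cdkn1a was at 44.9 and 111, a log2 ratio of 1.29. After the GC correction 5 of these 11 genes kept their side of 2-fold, with Bad, Cycs, Endog, Fas, Tnfrsf1a and Tnfrsf1b falling short, and with TPM 8 of the 11 did, with Cycs, Fas and Cdkn1a falling short. With a pseudocount of 5, Bad, Bcl2l13 and Endog fell short.

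**Figure D5:**
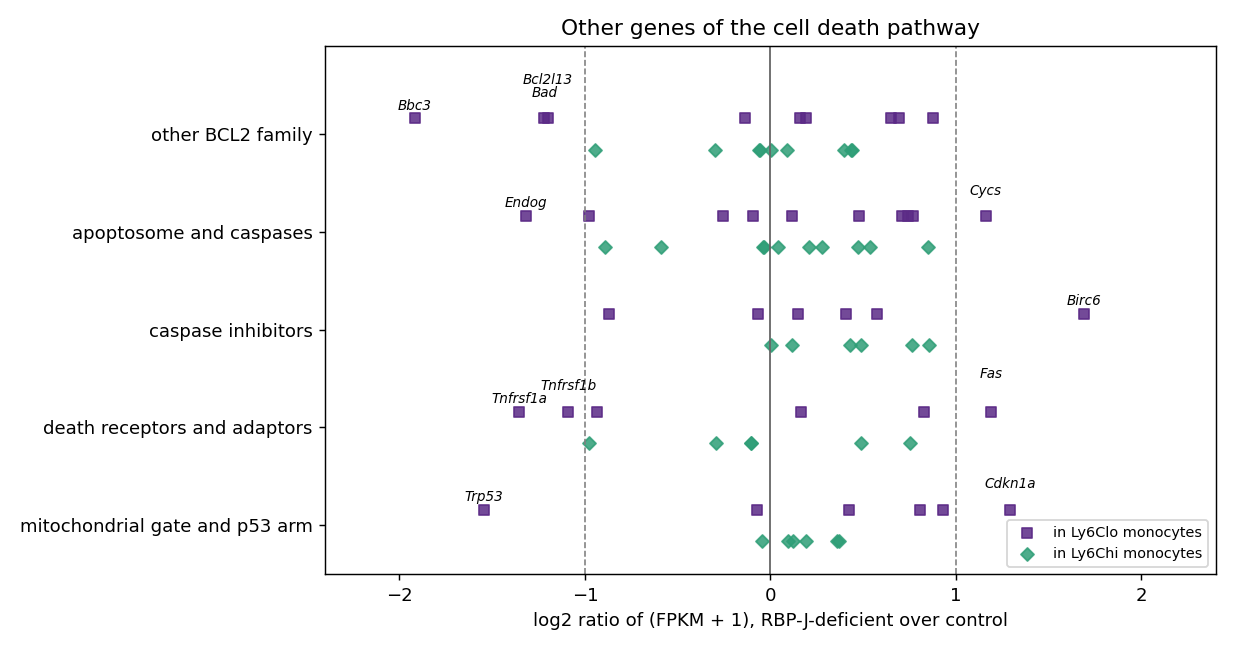
Log2 ratio on the (FPKM + 1) scale between RBP-J-deficient and control mice for the 37 expressed genes of the wider cell death pathway in Ly6Clo (squares) and Ly6Chi (diamonds) monocytes, by list, with dashed lines at 2-fold. The 11 genes named lie past a line in Ly6Clo monocytes, and all diamonds lie between the lines.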

How the data were processed

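The authors deposited FPKM values of 4 libraries, from paired-end sequencing, in a table with the layout of Cuffdiff output that gives each of 6 pairs of libraries. The submitters' processing notes name CASAVA 1.8, TopHat2 2.1.0, Cufflinks 2.2.1 and mm10, with no role or order. The authors' fold changes and p-values between pairs of single libraries were not used. Rows of 1 symbol were summed. All 10 members were marked OK in all 6 pairs, and the marks FAIL or HIDATA stood at 4 other genes. Members and gene lists were chosen with earlier results of these data known. Named are the members, pathway genes at least 2-fold apart between the genotypes (with a few others for context), Rbpj and markers as checks, and the 3 nearest profiles by Euclidean distance. Bok, Bik, Hrk, Bcl2l10, Pmaip1 and the genes around the Bcl2a1 cluster were added after their values were seen. The log2 ratio used a pseudocount of 1 and a 2-fold threshold. Alternatives were pseudocounts of 0.1 and 5, TPM, median centring, 1.5-fold and the study's thresholds of 5.7 and 0.2, a filter, summed Bcl2a1 rows, and a GC correction (lowess, fraction 0.3, fitted where the mean FPKM reached 5; GC of the longest GENCODE M21 transcript, known for 94.9% of expressed genes). Coordinates, in 1-based GRCm38, and promoters are from RefSeq, where all 10 members were found by symbol. The deposited positions were the same for Bcl2a1a, Bcl2a1b, Bcl2a1d and Bcl2l11. They differed for Bcl2, Bcl2l1, Mcl1, Bax, Bak1 and Bid, that of Bak1 being 27018035 to 27036378. Some listed genes are not reported here. The scripts were tested on simulated data. Python 3.11.15, numpy 2.4.6, pandas 2.3.3 and statsmodels 0.14.6 were used.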

Additional observations from a re-analysis of the deposited data

Results flagged for a closer look

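Bcl2 differed between the genotypes in opposite directions in the subsets. Its log2 ratio, RBP-J-deficient over control, was -1.05 in Ly6Clo and 0.62 in Ly6Chi monocytes, and each kept its sign under the pseudocounts, TPM, median centring and the GC correction. Bcl2l11 had log2 ratios of 0.0102 in Ly6Clo and -1.04 in Ly6Chi monocytes, and the first turned negative with TPM, median centring and the GC correction, at -0.17, -0.0131 and -0.15. Between the subsets, Ly6Clo over Ly6Chi, Bcl2l1 had a log2 ratio of 0.10 and -0.64 in control and RBP-J-deficient mice. These 3 differences are between single libraries and were not tested.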

How the results depend on the processing

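The 40 log2 ratios of the members were recomputed under 5 alternatives. Of these 200 values, 183 kept their sign and their side of 2-fold, and 11 changed sign, all of them of Bax, Bid, Bak1 or Bcl2l11 and none past 2-fold. In the genotype comparison of Ly6Clo monocytes 2 members were past 2-fold, 0 with a pseudocount of 5, 4 at 1.5-fold and 0 at the study's thresholds. In Ly6Chi monocytes the 4 became 0 at the study's thresholds and 2 with the Bcl2a1 rows summed. Between the subsets the 5 of control mice became 3 with the rows summed, and the 3 of RBP-J-deficient mice became 5 at 1.5-fold, 1 at the study's thresholds and 1 with the rows summed. The cause was not tested, beyond the fewer rows and the other thresholds themselves. Without the Bcl2a1 rows the ratio of antiapoptotic to proapoptotic FPKM was 0.448 in control Ly6Clo, 0.520 in RBP-J-deficient Ly6Clo, 0.317 in control Ly6Chi and 0.364 in RBP-J-deficient Ly6Chi monocytes, and without Mcl1 it was 4.31, 5.74, 0.329 and 1.01. Rescaling to TPM lowered the genotype ratios by 0.30 in Ly6Clo and 0.10 in Ly6Chi monocytes, which moved the median of all genes to -0.22 and -0.0818. Of all genes past 2-fold in the genotype comparison of Ly6Clo monocytes, 44.8% were higher and with TPM 22.9%, and in the subset comparison of RBP-J-deficient mice 44.3% and 29.0%. The share of genes past 2-fold in either direction was 20.0% in the genotype comparison of Ly6Clo monocytes and 8.56% with no filter, 7.20% in Ly6Chi and 3.07%, or 4.71% at a mean FPKM of at least 10. It was 12.96% and 5.53% between the subsets of control and 19.0% and 8.10% of RBP-J-deficient mice. No paired analysis was possible because the labels give no replicate numbers and each comparison sets 1 library against 1. A model of genotype with the subsets as pairs was not fitted. As depth is unknown, the precision of Bcl2l11, Bcl2l1 and Bak1, the members with the lowest FPKM, is unknown too.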
